A study of Oryctolagus cuniculus with 12 samples.

Results

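The endothelial cell genes described here are 10 common markers of the cells that line blood vessels, namely PECAM1, CDH5, KDR, FLT1, TEK, TIE1, ENG, VWF, EMCN and PLVAP. They were taken by symbol from an expression table of 29587 genes. Each symbol had 1 row, so all 10 were found, and all 10 were among the 13287 genes that passed the filter on low values. Bulk mRNA of the full thickness ear was sequenced from 12 wild-type female rabbits of 10 to 12 weeks, 3 in each of 4 groups. Normal skin (NS) came from untreated rabbits. Hypertrophic scar (HS) came from rabbits with 7 mm wounds on the ventral ear, 4 on each ear, that were left untreated. The drug-loaded MNs group had the same scars, each given a patch of separating microneedles made of photocrosslinked methacrylated gelatin with the 5-fluorouracil prodrug 5-FuA-Pep-MA. The 5-Fu injection group had the same scars, each given 0.1 mL of 5-fluorouracil solution (120 μg). Both treatments were given on days 22, 29 and 36, and all tissue was taken on day 43. Drug-free microneedles were not analysed here, so the patch and its drug cannot be told apart, and the 2 treatments differed in route, with the dose in the patch not given in the labels.

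Endothelial cells form the inner wall of blood and lymph vessels. They adhere to each other through junction proteins such as VE-cadherin and PECAM-1. They respond to vascular endothelial growth factors (VEGF) through the receptors KDR and FLT1, and to angiopoietins through the receptor TEK and its partner TIE1. Raised scars are known for many small vessels during their growth. Bulk RNA pools all cells of the tissue, so fewer endothelial cells and less RNA per cell cannot be told apart.

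Values are FPKM, fragments scaled to gene length and library size, so that levels of different genes can be set side by side. Fold changes are on the scale log2(FPKM + 1). A gene was called a DEG when limma gave a Benjamini-Hochberg adjusted p under 0.05 over all tested genes and the absolute log2 fold change was above 1. Each library held 10521472 to 14043667 reads on genes. Any 1 of the 10 genes had at least 412 reads in a sample (KDR) and at most 21188 (VWF), and these depths limit counting error only. Some libraries stood apart by markers of other cells. In 5-Fu injection replicate 2 the summed FPKM of 6 fibroblast markers was 26656, against 4977 and 6644 in the other two 5-Fu injection samples and 18865 to 27044 in the drug-loaded MNs group. In 5-Fu injection replicate 1 the T and B cell markers summed to 31.0 FPKM, against 3.96 FPKM or less elsewhere, and in NS replicate 1 the erythroid markers summed to 17.4 FPKM, against 4.20 FPKM or less elsewhere.

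All 10 genes were well expressed in the ear. PLVAP, the diaphragm protein of fenestrated and caveolar endothelium, was the highest of the 10, at a mean of 296 FPKM over the 12 samples. VWF, the clotting glycoprotein stored in endothelial granules, followed at 175 FPKM. ENG, the co-receptor endoglin of the TGF-β and BMP pathways, was at 140 FPKM. PECAM1 was at 87.0, EMCN at 58.5 and CDH5 at 38.1 FPKM, and the 4 receptor tyrosine kinases were the lowest, with TIE1 at 31.9, TEK at 20.7, KDR at 16.4 and FLT1 at 12.4 FPKM. PLVAP exceeded VWF in 12 of 12 samples and ENG exceeded PECAM1 in 12 of 12 samples. The other neighbours in this order changed places in at least 1 sample, most often CDH5 and TIE1, where CDH5 was the higher in 8 of 12. Among the 10, the gene with the widest fold range between samples was KDR, from 8.10 to 29.0 FPKM.

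**Figure D1:**
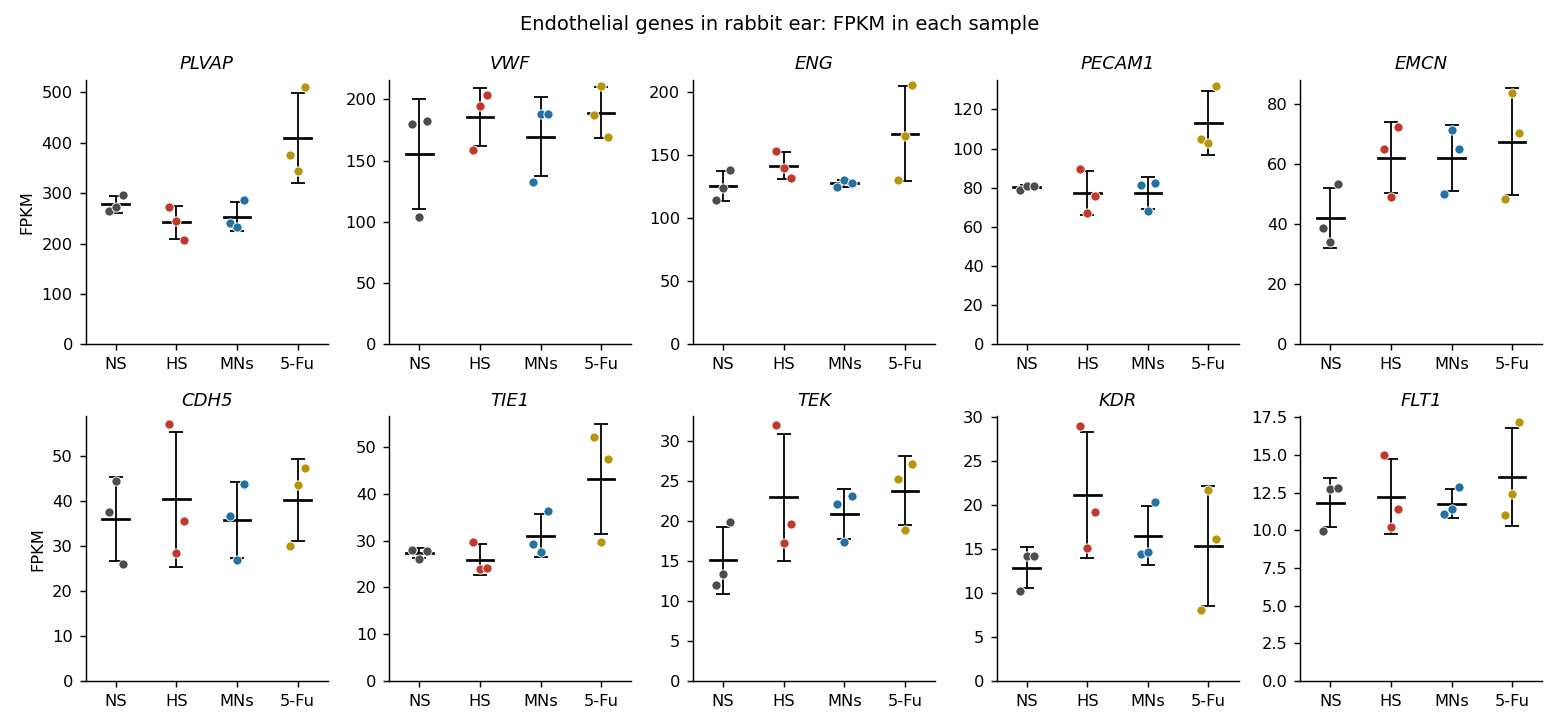
FPKM of the 10 endothelial genes (vertical axes from 0, a separate scale for each gene) in the 3 samples of each group (NS, HS, microneedles labelled MNs, and injection labelled 5-Fu); points are samples, horizontal lines the mean and error bars the SD. PLVAP and PECAM1 sit highest in the 3 samples of 5-Fu injection, and KDR is lowest in 5-Fu injection replicate 1 at 8.10 FPKM.

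The first comparison asked how scar differed from normal skin. None of the 10 endothelial genes was a DEG in HS versus NS, where 5.00% of all tested genes were, and 0 of 10 passed the adjusted p alone, which 7.45% of all genes did. The median log2 fold change of the 10 genes was 0.15, against −0.01 over all tested genes. TEK and EMCN, 2 of the 10, were higher at an unadjusted p under 0.05 (13.2% of all genes were), and 1 of them, KDR, was higher in every HS sample than in every NS sample (18.0% of all genes were). The 95% confidence interval lay within a log2 fold change of −1 to 1 for 7 of the 10 genes. For KDR, TEK and EMCN the upper bound was above 1. Without NS replicate 1 these 3 had log2 fold changes of 0.49, 0.42 and 0.51 (adjusted p = 0.53, 0.477 and 0.384). 

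The direction of the small HS versus NS differences depended on the scale. The deposited values put the median gene near 0, but relative to the total of reads on genes the median log2 fold change of all tested genes in HS versus NS became −0.33. On that scale 3 of the 10 genes had a positive value in place of 7. Relative to the median of all genes, 7 of the 10 were positive on both scales.

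In the deposited table, whose genome build is not given in the sources used here, PECAM1 (ENSOCUG00000015220) lies on chromosome 19 from 49195665 to 49263183 on the minus strand, and CDH5 (ENSOCUG00000010192) on chromosome 5 from 21872910 to 21900934 on the plus strand. KDR (ENSOCUG00000005062) lies on chromosome 15 from 93608315 to 93652418 and EMCN (ENSOCUG00000007231) on the same chromosome from 49347866 to 49458652, both on the plus strand. TEK (ENSOCUG00000017666) lies on chromosome 1 from 26309584 to 26438157, TIE1 (ENSOCUG00000008969) on chromosome 13 from 123339073 to 123348145 and VWF (ENSOCUG00000006783) on chromosome 8 from 32066187 to 32221565, all on the minus strand. FLT1 (ENSOCUG00000008523), ENG (ENSOCUG00000007136) and PLVAP (ENSOCUG00000016890) lie on unplaced scaffolds, and the PLVAP model starts 21 bases from the start of its scaffold, so it may be incomplete. Each value covers the whole gene model, with lengths from 962 bases for EMCN to 8499 bases for VWF.

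The junction genes did not separate scar from normal skin. PECAM1, an adhesion molecule at endothelial borders, had 79.0, 81.0 and 80.7 FPKM in NS and 89.3, 66.9 and 76.0 FPKM in HS. The HS samples spread around the narrow NS range, and the groups overlapped. Its log2 fold change was −0.06 (SE 0.15, limma adjusted p = 0.843). CDH5, which encodes VE-cadherin of the adherens junction, had 37.4, 44.4 and 25.9 FPKM in NS and 57.1, 28.4 and 35.6 FPKM in HS, so that single animals of 1 group covered the range of the other. Its log2 fold change was 0.14 (SE 0.29, adjusted p = 0.819).

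Neither VEGF receptor passed the adjusted p in HS versus NS. KDR, the main signalling receptor for VEGFA, had 10.2, 14.2 and 14.2 FPKM in NS and 29.0, 15.1 and 19.2 FPKM in HS. Every HS sample was above every NS sample, with HS replicate 1 well above the rest. KDR differed by 0.64 on the log2 scale (SE 0.33, adjusted p = 0.272), and on the scale of total reads it was 0.30. FLT1, which binds VEGFA tightly and is known as a decoy receptor, had 9.96, 12.8 and 12.8 FPKM in NS and 15.0, 10.3 and 11.4 FPKM in HS. These groups overlapped, at a log2 fold change of 0.04 (SE 0.19, adjusted p = 0.934).

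A ratio within a sample does not depend on how samples are scaled to each other. The ratios given here were added after their values were seen. The ratio of FLT1 to KDR in FPKM was 0.972, 0.901 and 0.902 in NS. In HS it was 0.519, 0.680 and 0.597, below every NS sample. The mean difference was −0.64 on the log2 scale, with a p of 0.1 by the exact permutation test (two-sided), the smallest that 3 samples against 3 allow, and 0.45 after Benjamini-Hochberg adjustment over 18 such comparisons. In the drug-loaded MNs group the ratio was 0.765, 0.781 and 0.635, also below every NS sample but overlapping HS. In the 5-Fu injection group it ran from 0.571 to 1.36 and overlapped all other groups.

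Neither Tie receptor passed the adjusted p in HS versus NS. TEK, the angiopoietin receptor Tie2, had 12.0, 13.4 and 19.9 FPKM in NS and 32.1, 17.3 and 19.7 FPKM in HS. The highest NS sample lay above 2 of the 3 HS samples. TEK differed by 0.56 on the log2 scale (SE 0.25, unadjusted p = 0.0483, adjusted p = 0.21). TIE1, an orphan receptor that forms complexes with TEK, had 28.1, 26.1 and 27.9 FPKM in NS and 29.8, 23.9 and 24.3 FPKM in HS, at a log2 fold change of −0.08 (SE 0.20, adjusted p = 0.851). The HS values lay on both sides of the narrow NS range. The ratio of TIE1 to TEK was 2.35, 1.95 and 1.40 in NS and 0.928, 1.38 and 1.23 in HS, so every scar was below every normal sample. The mean difference was −0.67 on the log2 scale (exact permutation p = 0.1, adjusted p = 0.45 over 18 comparisons).

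**Figure D2:**
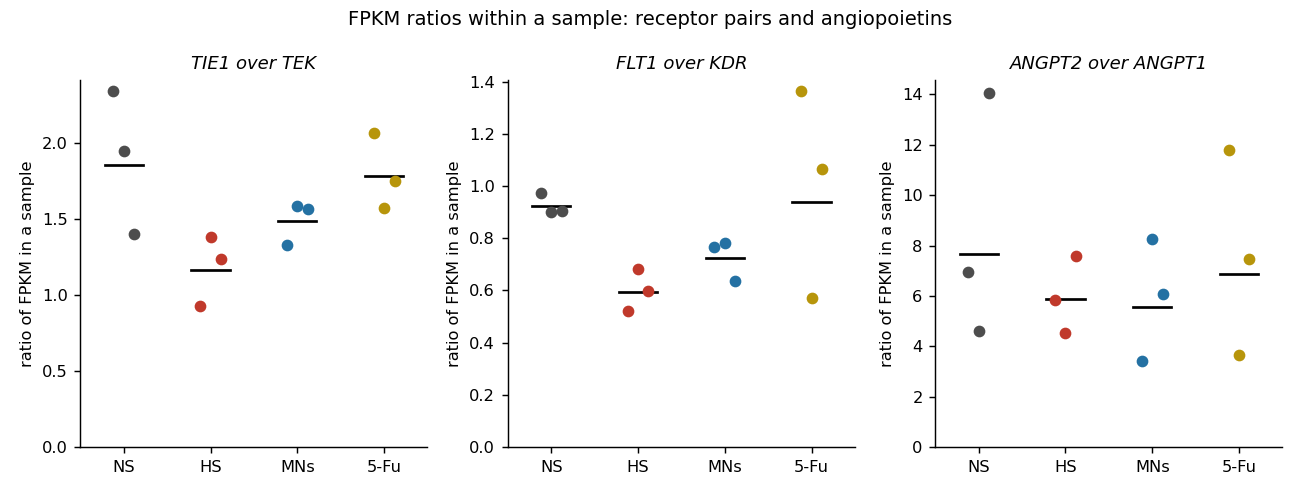
Ratios of FPKM within each sample (vertical axes from 0) for TIE1 over TEK, FLT1 over KDR and ANGPT2 over ANGPT1 in the 4 groups; points are samples and horizontal lines the geometric mean. The first 2 ratios are lower in every HS sample than in every NS sample, and ANGPT2 over ANGPT1 overlaps between all groups.

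The remaining genes also overlapped between scar and normal skin. ENG had 114, 124 and 138 FPKM in NS and 153, 139 and 132 FPKM in HS (log2 fold change 0.17, SE 0.16, adjusted p = 0.561). VWF had 180, 104 and 183 FPKM in NS and 159, 195 and 203 FPKM in HS (log2 fold change 0.29, SE 0.23, adjusted p = 0.489). The low NS value came from 1 animal, replicate 2, and the other two NS samples lay within the HS range. EMCN, the endomucin of capillary and venous endothelium, had 38.9, 34.1 and 53.4 FPKM in NS and 64.9, 49.1 and 72.5 FPKM in HS. A single NS sample exceeded the lowest HS sample, and the log2 fold change was 0.56 (SE 0.24, adjusted p = 0.194). PLVAP had 264, 272 and 296 FPKM in NS and 273, 245 and 207 FPKM in HS. Its log2 fold change was −0.21 (SE 0.18, adjusted p = 0.526), so the most abundant of the genes leaned the other way from KDR, TEK and EMCN.

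Relative to the mean of the other 9 genes in the same sample, PECAM1, TIE1 and PLVAP were each lower in every HS sample than in every NS sample. For PECAM1 this relative level was 0.11 ± 0.10 in NS and −0.18 ± 0.03 in HS (log2 scale, SD, n = 3 each). For PLVAP it was 0.16 ± 0.02 in NS and −0.30 ± 0.22 in HS. For KDR the opposite held, with −0.10 ± 0.23 in NS and 0.38 ± 0.26 in HS. These are descriptions without a test, since the genes share each sample.

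**Figure D3:**
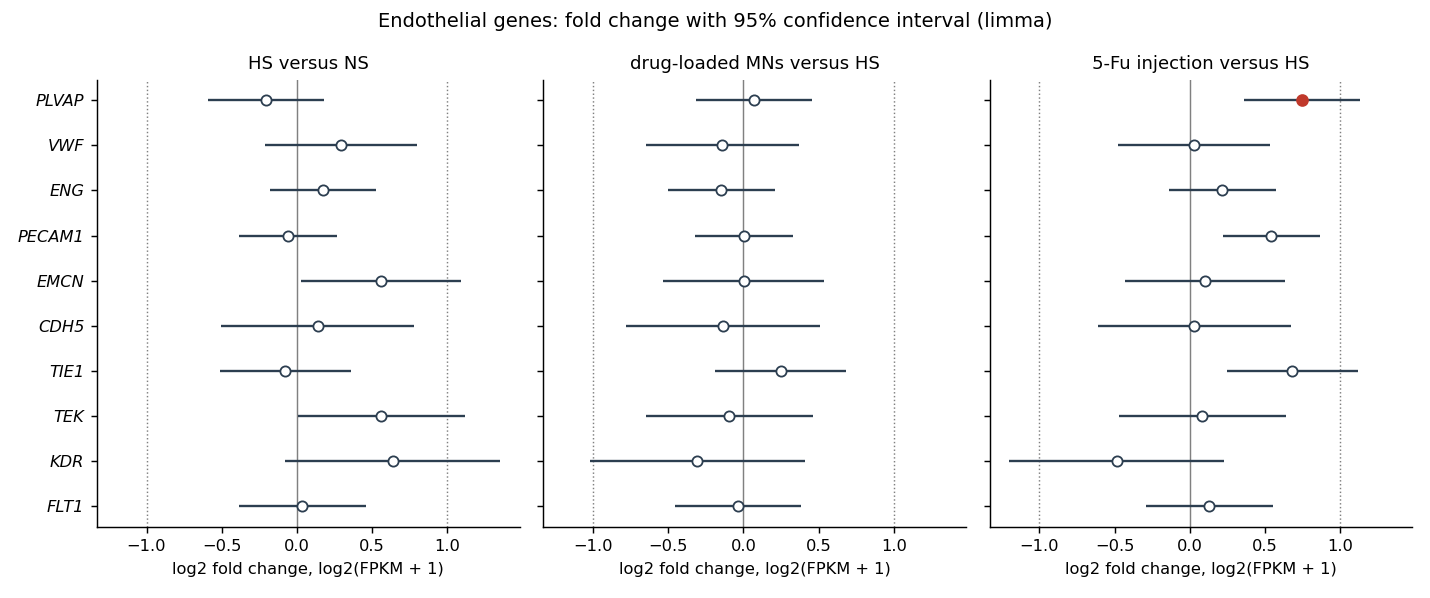
Log2 fold change of the 10 endothelial genes (horizontal axes, log2(FPKM + 1) scale) with 95% confidence intervals from limma, for HS versus NS, drug-loaded MNs versus HS and 5-Fu injection versus HS. Dotted lines mark −1 and 1, and the filled red point, PLVAP in 5-Fu injection versus HS at 0.75, is the only one with an adjusted p under 0.05.

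The next comparison asked what the microneedle patch did to the scar. In drug-loaded MNs versus HS, 0 of the 10 genes were DEGs (0.00753% of all tested genes were) and 0 of 10 had an unadjusted p under 0.05 (8.90% of all genes had). The log2 fold changes ran from −0.31 for KDR to 0.25 for TIE1, with a median of −0.07 against −0.02 over all genes. The interval lay within −1 to 1 for 9 of 10 genes, the exception being KDR with a lower bound of −1.02. ENG was the only member lower in every treated sample than in every untreated scar, a pattern held by 10.3% of all genes, with 125, 130 and 127 FPKM after microneedles. The log2 fold change of ENG was −0.15 (SE 0.16, adjusted p = 0.843), and on the scale of total reads it was 0.00. KDR had 14.5, 14.6 and 20.3 FPKM and TEK 22.1, 17.4 and 23.2 FPKM after microneedles, inside or just below the HS ranges. EMCN had 49.9, 71.3 and 64.9 FPKM, at a log2 fold change from HS of 0.00 (SE 0.24).

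Against normal skin, 0 of 10 genes were DEGs after microneedles (0.873% of all genes were). EMCN was higher at an unadjusted p of 0.0419 (7.68% of all genes were higher at an unadjusted p under 0.05), with a log2 fold change of 0.56 and an adjusted p of 0.37. KDR was again higher in every treated scar than in every normal sample (11.5% of all genes were), with a log2 fold change of 0.33 (SE 0.33, adjusted p = 0.718).

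The largest differences among the endothelial genes followed 5-Fu injection. In 5-Fu injection versus HS 0 of 10 were DEGs, since no fold change exceeded 1 on the log2 scale (2.29% of all tested genes were DEGs). PLVAP alone passed the adjusted p, at a fold change below the DEG threshold, while 4.40% of all genes passed it in either direction. PLVAP, PECAM1 and TIE1, 3 of the 10, were higher at an unadjusted p under 0.05 (11.6% of all genes were), and the same 3 were higher in every 5-Fu injection sample than in every HS sample (13.9% of all genes were). The median log2 fold change of the 10 genes was 0.11, with 9 positive, against 0.02 over all tested genes. When FPKM was rescaled to its total in each sample, the median was −0.073 with 4 of the 10 positive, against −0.15 over all genes, and relative to that median 7 were positive. In the same comparison all 6 fibroblast markers were lower in every 5-Fu injection sample than in every HS sample (16.4% of all genes were), with a median log2 fold change of −2.02, and their part in the endothelial values was not tested.

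PLVAP had 375, 343 and 510 FPKM after 5-Fu injection and at most 273 FPKM in HS. All treated samples lay above all untreated scars and all normal samples. The log2 fold change from HS was 0.75 (SE 0.18, adjusted p = 0.0419, 95% confidence interval 0.36 to 1.13). The fold was positive in all 22 alternative settings (10 other processing choices and 12 fits that each left out 1 sample), but the adjusted p was under 0.05 in 8 of them and was 0.132 when only the 2 groups entered the fit. Of the 12 fits that left out 1 sample, 2 kept it under 0.05, those without 5-Fu injection replicate 2 (log2 fold change 0.86, adjusted p = 0.0201) and without drug-loaded MNs replicate 3 (0.0444). Without 5-Fu injection replicate 3, the highest sample, the log2 fold change of PLVAP was 0.58 (adjusted p = 0.128), and without HS replicate 3 its adjusted p was 0.143.

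PECAM1 had 105, 103 and 132 FPKM after 5-Fu injection, above the highest scar at 89.3 FPKM. The log2 fold change was 0.54 (SE 0.15, unadjusted p = 0.00364, adjusted p = 0.0603), and with 1 sample left out it ran from 0.43 to 0.65. The adjusted p of PECAM1 was under 0.05 in 1 of these 12 fits, that without 5-Fu injection replicate 2 (0.0431), and without replicate 1 it was 0.0888. TIE1 had 52.2, 29.8 and 47.5 FPKM after 5-Fu injection. Replicate 2, the library with high fibroblast markers, lay barely above the highest scar, and the other two were well above it. The log2 fold change of TIE1 was 0.68 (SE 0.20, adjusted p = 0.0707), and with 1 sample left out it ran from 0.53 to 0.92. The adjusted p of TIE1 was under 0.05 in 1 of these 12 fits, that without replicate 2 (0.00885), and it was 0.164 without replicate 1 and 0.194 without replicate 3. TIE1 over TEK was 2.06, 1.57 and 1.75 after 5-Fu injection, above every HS sample (difference 0.61 on the log2 scale, exact permutation p = 0.1, adjusted p = 0.45 over 18 comparisons).

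The other 7 genes overlapped between 5-Fu injection and HS. KDR had 8.10, 21.7 and 16.1 FPKM, the widest spread of the 10 genes in any group for its level (coefficient of variation 44.7%), and a log2 fold change of −0.49 (SE 0.33, adjusted p = 0.366). ENG had 130, 165 and 205 FPKM (log2 fold change 0.22, SE 0.16, adjusted p = 0.424). CDH5, VWF, TEK, EMCN and FLT1 had log2 fold changes between 0.03 and 0.13, with adjusted p of 0.703 or more.

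Against normal skin, 0 of 10 genes were DEGs after 5-Fu injection (0.00753% of all genes were), and all 10 had a positive log2 fold change, with a median of 0.43 against 0.01 over all genes. Of the 10, 6 genes, PECAM1, TIE1, PLVAP, TEK, EMCN and ENG, were higher at an unadjusted p under 0.05 (7.93% of all genes were). Their adjusted p lay between 0.215 and 0.302. Without 5-Fu injection replicate 2 KDR was at −0.14 from NS (adjusted p = 0.871) and TIE1 at 0.84 (adjusted p = 0.145). PECAM1, TIE1 and PLVAP were higher in every 5-Fu injection sample than in every NS sample, as were 9.60% of all genes. On the scale of total reads, and on that of total FPKM, 7 of the 10 were positive. On the former the median over all genes stood at −0.19, and relative to that median all 10 were positive. The summed FPKM of the 10 genes was 972, 1032 and 1242 after 5-Fu injection, above the 726 to 902 of all NS and HS samples. Total FPKM was also higher after 5-Fu injection, and as a share of total FPKM the sums were 0.136%, 0.154% and 0.172%, overlapping the 0.128% to 0.143% of NS and the 0.128% to 0.147% of HS.

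The comparisons above share their HS or NS samples, so they are not independent of each other. Between the treatments, drug-loaded MNs versus 5-Fu injection, there were no DEGs among the 10 genes by limma (0% of all genes, or 0 of 13287, were). PECAM1, PLVAP and ENG, 3 of the 10, were lower after microneedles at an unadjusted p under 0.05 (6.97% of all genes were), and the same 3 were lower in every microneedle sample than in every injected sample (8.42% of all genes were). The log2 fold changes were −0.54 for PECAM1 (adjusted p = 0.25), −0.67 for PLVAP (adjusted p = 0.249) and −0.36 for ENG (adjusted p = 0.324). Without 5-Fu injection replicate 2 they were −0.60, −0.79 and −0.36 (adjusted p = 0.153, 0.116 and 0.353). Of the 10 genes, 9 had a negative value here. When FPKM was rescaled to its total in each sample, 4 of the 10 were negative while the median over all genes stood at 0.16, and relative to that median 9 were again negative.

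**Figure D4:**
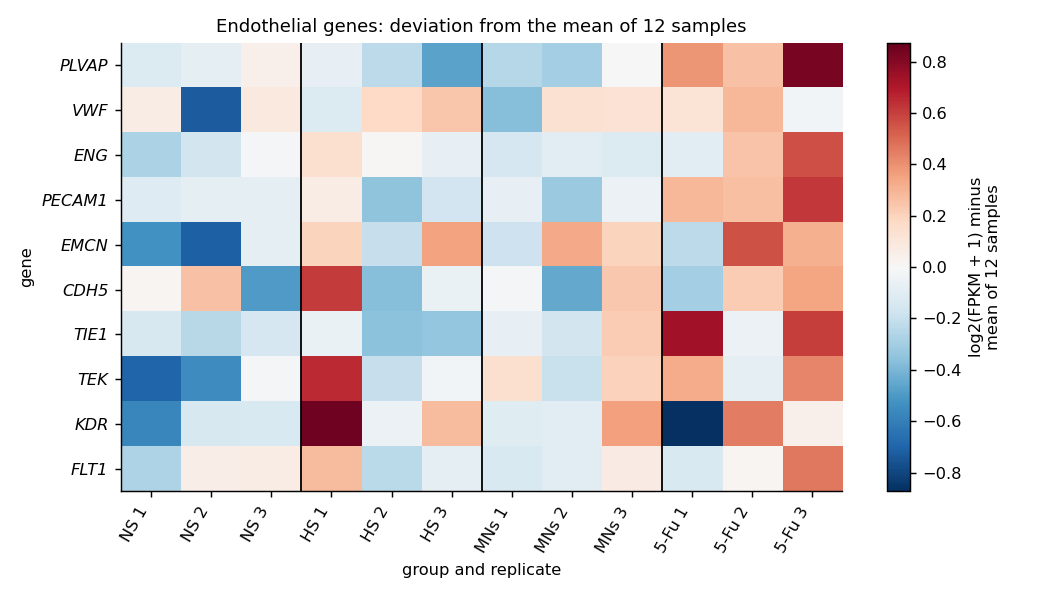
Each endothelial gene (rows) in each of the 12 samples (columns) as log2(FPKM + 1) minus the mean of that gene over the 12 samples; red is above and blue below the mean. PECAM1 and PLVAP are above their mean in all 3 samples of 5-Fu injection, while KDR is strongest in HS replicate 1 and weakest in 5-Fu injection replicate 1.

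The 10 genes did not vary as 1 block. Of their 45 pairs, 41 had a positive Pearson r over the 12 samples, with a median of 0.41, and 6 exceeded 0.7. PECAM1 and PLVAP were the closest pair, at r = 0.92, and r = 0.73 within groups. TIE1 followed PLVAP at r = 0.83 and PECAM1 at r = 0.80. CDH5 and VWF ran against each other, at r = −0.34, and KDR and TIE1 at r = −0.31. The points of each correlation share their libraries, and no test was made. The genes most like the mean of the 10, among 7116 genes with a symbol and a mean FPKM of at least 5, were PTP4A3 (r = 0.92), OAZ2 (0.92), MRPL15 (0.91), COA3, EDEM2, TBC1D7, KCNJ8, SNF8, PRCP and PSMD8 (0.88 to 0.86). PTP4A3 also ranked at position 1 by r within groups. KCNJ8, a potassium channel subunit of pericytes, was the only one of the 10 in any of the gene lists used here.

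Other endothelial genes were read from a list of 30, of which 20 were in the table and tested. In HS versus NS 0 of 20 were DEGs (5.00% of all tested genes were) and 13 had a negative log2 fold change. The median was −0.17, against −0.01 over all tested genes. ROBO4, a roundabout receptor of endothelium, had 26.1, 26.2 and 23.2 FPKM in NS and 17.8, 17.9 and 17.6 FPKM in HS. ROBO4 differed by −0.48 on the log2 scale (SE 0.12, adjusted p = 0.0308), negative in all 22 alternative settings and at an adjusted p under 0.05 in 15. MMRN2, an endothelial matrix protein that binds VEGFA, was at 82.1 ± 7.77 FPKM in NS and 49.7 ± 10.8 in HS (SD, n = 3 each), and its log2 fold change was −0.73 (SE 0.19, adjusted p = 0.0444, under 0.05 in 10 of 22 settings). Both lay lower in every scar than in every normal sample. The adjusted p of both rose above 0.05 on leaving out any 1 HS sample or NS replicate 1 or 2. That of MMRN2 also rose above 0.05 without NS replicate 3, drug-loaded MNs replicate 1 or 5-Fu injection replicate 3.

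After 5-Fu injection 17 of the 20 genes had a positive log2 fold change from HS (51.4% of all tested genes had). Their median was 0.40, against 0.02 over all tested genes, and 0 were DEGs (2.29% of all tested genes were). When FPKM was rescaled to its total in each sample 15 of the 20 were positive, with a median of 0.21 against −0.15 over all tested genes. ROBO4 was at 27.7 ± 0.41 FPKM after 5-Fu injection, against 17.7 ± 0.15 in HS (SD, n = 3 each), and every injected sample was above every HS and NS sample (log2 fold change from HS 0.61, SE 0.12, adjusted p = 0.0272). RASIP1, a Ras-interacting protein needed for vessel lumens, was at 46.2 ± 7.39 FPKM (SD, n = 3) against 31.7, 28.3 and 24.7 FPKM in the HS samples (log2 fold change 0.69, SE 0.15, adjusted p = 0.0382). Neither passed the fold threshold, and their adjusted p was under 0.05 in 14 and 11 of 22 settings. Leaving out any 1 HS sample, or 5-Fu injection replicate 1 or 3, was among the settings that took both above 0.05. After microneedles 10 of the 20 were positive, at a median of −0.01 from HS against −0.02 over all tested genes. ROBO4 was at 21.7, 20.9 and 17.5 FPKM.

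**Figure D5:**
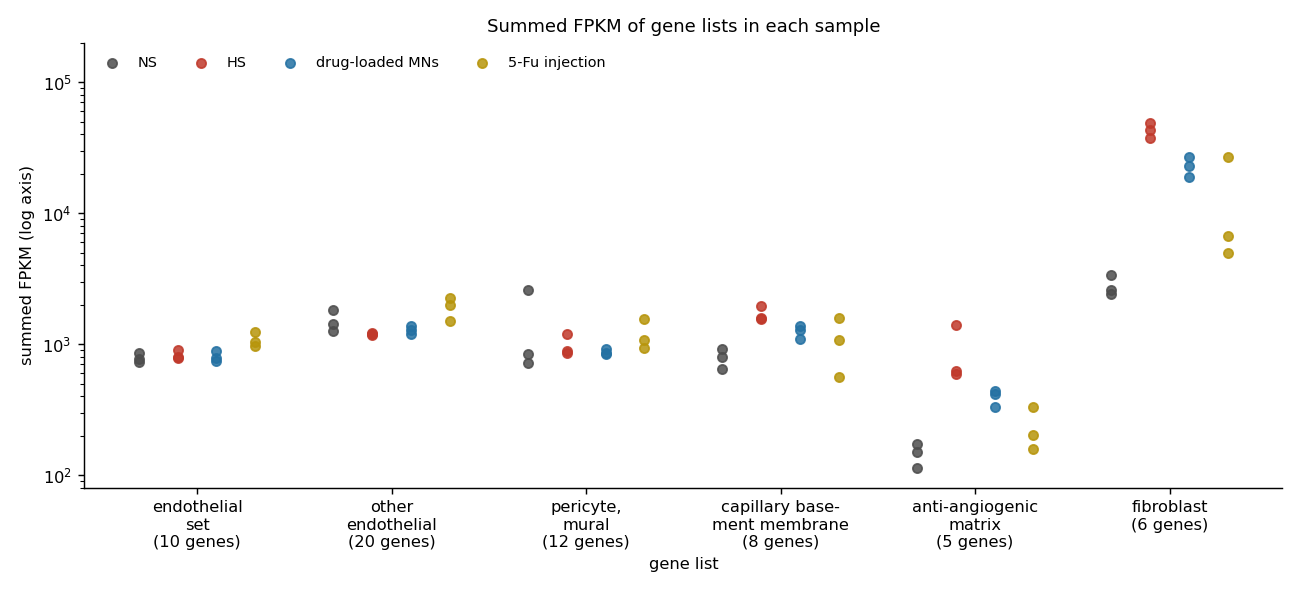
Summed FPKM (log axis) of 6 gene lists in each of the 12 samples, coloured by group. The 10 endothelial genes stay between 726 and 1242 FPKM, while the fibroblast markers run from 2401 in NS to 48655 in HS and 5-Fu injection replicate 2, at 26656, lies apart from its group.

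VEGFA, ANGPT1 and ANGPT2, ligands of the receptors above, were not DEGs in HS versus NS or after either treatment. VEGFA, which binds KDR and FLT1, had 16.5, 13.5 and 9.84 FPKM in NS and 10.3, 9.07 and 8.79 FPKM in HS, with a log2 fold change of −0.44 (SE 0.21, adjusted p = 0.228). The lowest normal sample lay within the scar range. ANGPT1, the activating ligand of TEK, was at 3.26 ± 0.77 FPKM in NS and 3.01 ± 0.37 in HS. ANGPT2, the context-dependent antagonist made by endothelium, was at 25.5 ± 9.26 FPKM in NS and 18.0 ± 4.68 in HS (SD, n = 3 each). Its log2 fold change was −0.46 (adjusted p = 0.331), and that of ANGPT1 was −0.07 (adjusted p = 0.896).

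Of the 12 ligand and co-receptor genes found, of 13 listed, 2 were DEGs in HS versus NS (5.00% of all tested genes were). NRP2, a neuropilin co-receptor for VEGFC and semaphorins, had 15.6, 17.0 and 19.1 FPKM in NS and 62.6, 54.3 and 65.8 FPKM in HS. It rose in scar with a log2 fold change of 1.76 (SE 0.29, adjusted p = 0.00544), and was a DEG in all 22 alternative settings. It fell after 5-Fu injection to 23.6, 29.4 and 12.3 FPKM (log2 fold change from HS −1.52, adjusted p = 0.0272). This call held in 15 of 22 settings. It was lost with only the 2 groups in the fit and with no filter on low values. It was also lost on leaving out any 1 HS sample or 5-Fu injection replicate 1 or 3. Without replicate 2 the log2 fold change was −1.77 (adjusted p = 0.00764). After microneedles NRP2 had 37.7, 31.8 and 20.3 FPKM, lower in every sample than in HS, at −1.04 (adjusted p = 0.31). SVEP1, a large matrix protein of vessels, rose in HS from 6.79, 6.75 and 4.43 to 15.4, 31.0 and 31.8 FPKM (log2 fold change 1.91, SE 0.44, adjusted p = 0.0246). This call was lost in 5 of 22 settings, those without any 1 NS sample and without HS replicate 2 or 3. The part of fibroblasts in NRP2 and SVEP1 was not tested.

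Among 13 Notch, ephrin and BMP genes of vessels found, of 18 listed, 12 were tested. In HS versus NS 0 were DEGs (5.00% of all tested genes were), and 1 fell as a DEG after 5-Fu injection (1.78% of all tested genes did). BMPR2, a receptor that signals with ENG and ACVRL1, had 18.3, 15.2 and 18.3 FPKM in HS and 6.28, 9.46 and 6.61 FPKM after 5-Fu injection (log2 fold change −1.13, SE 0.18, adjusted p = 0.0214). It was a DEG in 15 of 22 settings. The adjusted p rose above 0.05 with only the 2 groups in the fit, and on leaving out any 1 HS sample or 5-Fu injection replicate 1 or 3. Without replicate 2 the log2 fold change was −1.29 (adjusted p = 0.00404). In NS it had 9.02, 8.35 and 11.5 FPKM, below every scar (HS versus NS 0.79, adjusted p = 0.0233, under the fold threshold). ACVRL1, DLL4, HEY2 and EFNB2, genes of BMP and Notch signalling and of arteries, did not pass the test in either comparison.

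Capillary basement membrane genes were higher in scar. All 8 capillary basement membrane genes found, of 9 listed, were higher in every HS sample than in every NS sample (18.0% of all tested genes were), and 5 rose as DEGs (3.53% of all genes did). LAMB1, a laminin chain, had 36.9, 25.1 and 35.2 FPKM in NS and 105, 96.1 and 95.4 FPKM in HS (log2 fold change 1.60, SE 0.29, adjusted p = 0.00948). NID1, a nidogen that links laminin to collagen IV, rose by 2.17 on the log2 scale (SE 0.36, adjusted p = 0.00577). LAMA4, HSPG2 and NID2 rose by 1.06, 1.20 and 1.04 on the log2 scale (adjusted p = 0.012, 0.0241 and 0.0138), and these 3 were DEGs in 18, 16 and 17 of 22 settings. The adjusted p of HSPG2 rose above 0.05 without NS replicate 1 or 2 or any 1 HS sample, and that of NID2 without HS replicate 2. The other lost calls of these 3 genes did not pass the fold threshold. Over the settings the lowest log2 fold changes were 0.70 for LAMA4, 0.84 for HSPG2 and 0.69 for NID2. After microneedles all 8 had a negative log2 fold change from HS, with a median of −0.50 and 0 DEGs. Of these 8, 6 were lower in every microneedle sample than in every HS sample (10.3% of all genes were). After 5-Fu injection all 8 were also negative, with a median of −0.87, and 6 were lower in every sample than in HS (16.4% of all genes were). After 5-Fu injection 2 fell as DEGs (1.78% of all genes did), HSPG2 (−1.12, adjusted p = 0.0456, a DEG in 7 of 22 settings) and NID1 (−1.53, adjusted p = 0.0417, a DEG in 10 of 22). Both were lost on leaving out any 1 HS sample, NS replicate 1, drug-loaded MNs replicate 2 or 3, or 5-Fu injection replicate 1 or 3, and HSPG2 also without drug-loaded MNs replicate 1. Both also lost their call with only the 2 groups in the fit, with no filter on low values, with the replicate block and on the scale of total reads. Without 5-Fu injection replicate 2 they were −1.46 (adjusted p = 0.00516) and −1.93 (adjusted p = 0.00768). In that fit LAMB1 (−1.26, adjusted p = 0.0244) and NID2 (−1.06, adjusted p = 0.0151) also fell as DEGs. These genes are also made by fibroblasts, and all 6 fibroblast markers were DEGs higher in HS, with sums of 2401 to 3383 FPKM in NS and 37301 to 48655 FPKM in HS. The collagen genes COL1A1, COL1A2 and COL3A1 rose by 4.34, 4.18 and 3.95 on the log2 scale, the proteoglycan genes LUM and DCN by 4.48 and 1.62, and FAP, a protease of activated fibroblasts, by 1.32 (adjusted p from 0.00109 to 0.0131). After 5-Fu injection COL1A1, COL3A1 and LUM fell as DEGs (−2.69, −1.93 and −2.12, adjusted p = 0.0421, 0.0387 and 0.0492), and without replicate 2 they were at −3.65, −2.47 and −2.85. These calls were lost with only the 2 groups in the fit and without HS replicate 2 or 3. In those fits no tested gene was a DEG in 5-Fu injection versus HS. The part of fibroblasts in the basement membrane result was not tested.

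Of 5 genes of matrix that restrains vessel growth found, of 6 listed, 1 was a DEG in HS versus NS (5.00% of all tested genes were). THBS2, thrombospondin 2, had 36.6, 28.8 and 17.3 FPKM in NS and 1180, 404 and 416 FPKM in HS, rising by 4.42 on the log2 scale (SE 0.54, adjusted p = 0.00139). It fell after 5-Fu injection to 43.6, 173 and 52.6 FPKM (log2 fold change −2.97, adjusted p = 0.0267), where the highest value came from replicate 2. This call was lost with only the 2 groups in the fit, without any 1 HS sample and without 5-Fu injection replicate 1 or 3. Without replicate 2 THBS2 was at −3.58 (adjusted p = 0.0034). After microneedles THBS2 had 295, 187 and 207 FPKM, a DEG against NS (3.05 on the log2 scale, adjusted p = 0.0277, in 14 of 22 settings and lost on leaving out any 1 NS or microneedle sample) but not against HS (−1.37, adjusted p = 0.506). The fibroblast markers had a median log2 fold change of 4.07 in HS versus NS, and the part of fibroblasts in THBS2 was not tested.

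Neighbouring cell types were read beside the endothelial genes. None of 12 pericyte and mural genes was a DEG in HS versus NS (5.00% of all tested genes were). PDGFRB, the PDGF receptor of pericytes and fibroblasts, came nearest, at 87.4 ± 14.6 FPKM in NS and 173 ± 11.4 in HS (log2 fold change 0.99, adjusted p = 0.0133, SD with n = 3 each, above 0.05 without NS replicate 1 or HS replicate 1). DES and MYH11, contractile genes of smooth muscle, had the largest negative values, −1.90 (adjusted p = 0.0602) and −1.55 (adjusted p = 0.184), and the summed level of the list ran from 715 to 2592 FPKM within NS alone. Of 6 lymphatic genes found, 0 were DEGs. PDPN, CCL21 and LYVE1 had the largest changes in HS versus NS, at 0.80, −0.66 and 0.65 (adjusted p = 0.0841, 0.122 and 0.149). Of 5 genes found from a list for activated endothelium, 0 were DEGs. The adhesion molecules ICAM1 at 0.67 and VCAM1 at −0.41, and CD74, the class II invariant chain of antigen-presenting cells, at 0.38, had the largest changes (adjusted p = 0.0839, 0.602 and 0.481).

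Platelets and megakaryocytes also express PECAM1 and VWF. The summed FPKM of the 4 platelet genes found was 2.76 to 7.28 over all samples. VWF was at 104 FPKM or more, and the part of platelets in VWF or PECAM1 was not tested. GP9, GP1BA and TUBB1 averaged below 1 FPKM and did not enter the fit. ITGA2B, the remaining one, was higher in HS by 0.91 on the log2 scale (adjusted p = 0.0274, below the fold threshold). Macrophages, which can express PECAM1, had summed marker levels of 171 to 322 FPKM in NS, 261 to 437 in HS, 190 to 365 after microneedles and 161 to 493 after 5-Fu injection. The 5-Fu injection sample with the lowest macrophage sum, replicate 3 at 161 FPKM, had the highest PECAM1 and PLVAP. The sums of macrophage and endothelial genes were not tested against each other.

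The mix of other tissues also differed between samples. Of 6 keratinocyte genes, KRT5 was a DEG lower in HS than in NS (−1.34 on the log2 scale, adjusted p = 0.042), and so was SOX10, a transcription factor of Schwann cells (−1.77, adjusted p = 0.0115). All 6 Schwann cell genes found were lower in every HS sample than in every NS sample (15.3% of all genes were), at a median of −1.60. The summed cartilage markers ran from 466 to 5413 FPKM within the 5-Fu injection group alone. They were highest in replicate 1, the sample with the lowest KDR and the highest TIE1. Skeletal muscle markers summed to 5.63 to 74.5 FPKM over all samples, highest in NS replicate 3, and adipocyte markers to 274 to 630 FPKM. No muscle, cartilage, fat, lymphocyte or erythroid gene was a DEG between HS and NS or after either treatment. The part of these tissues in the endothelial values was not tested.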

How the data were processed

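Total RNA of the full thickness ear of 12 rabbits was purified with poly-T beads and sequenced on an Illumina NovaSeq instrument. The authors deposited FPKM per gene for each sample. The aligner, annotation release and genome build are not given in the sources used here. FPKM multiplied by gene length gave whole reads in 100% of values (within 0.01 reads). At 1 kilobase of length a single read was worth 0.0768 to 0.0972 FPKM. Reads on genes numbered 10521472 to 14043667 per sample.

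Samples were grouped by their labels, from separate rabbits. limma 3.58.1 (R 4.3.3) fitted 1 model for the 4 groups to log2(FPKM + 1) for the 13287 genes whose mean FPKM reached 1. Variances followed a trend on the mean, and p-values were adjusted per comparison (6 in all) after Benjamini-Hochberg. A DEG needed an adjusted p below 0.05 plus a log2 fold change beyond 1 in either direction. The authors' count-based test was not used, because the table holds FPKM. Ratios were tested by exact permutation (two-sided). The fit was tested on simulated data.

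Named genes were the 10 endothelial genes, VEGFA, ANGPT1 and ANGPT2, genes of 18 further lists that were DEGs (otherwise up to 3 with the largest change in HS versus NS; for macrophage, cartilage, muscle, fat, lymphocyte and erythroid lists the sums are given instead), and the 10 genes most like the endothelial mean. ROBO4, RASIP1, PDGFRB, ACVRL1, DLL4, HEY2, EFNB2, ITGA2B and the ratios were added after their values were seen. The genes and lists were chosen with earlier results of these data known. Rescaling to the total of reads was also added after the values were seen. Alternatives were another pseudocount, other filters and scalings, voom on reads counted back, no trend, a replicate block, 2 groups per fit, adjusted p alone and each replicate left out. A result on another gene of these lists is not reported here.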

Additional observations from a re-analysis of the deposited data

How the results depend on the processing

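The count of DEGs among the 10 endothelial genes was 0 in each of the 6 comparisons under every alternative run, voom on reads counted back and leaving out each replicate included (lowest 0, highest 0), except that the adjusted p alone passed 1 gene, PLVAP, in 5-Fu injection versus HS. Replicate numbers do not pair these samples, which come from different rabbits, and correlations of same-numbered samples ran from −0.27 to 0.44. With the replicate block the count was again 0 in each comparison and the adjusted p of PLVAP became 0.0683.

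Directions of small, uncalled differences changed in 66 cases, counting of the fits with 1 sample left out only the lowest and the highest value of a gene. Rescaling to the total of reads turned in HS versus NS CDH5 to −0.22, FLT1 to −0.30, ENG to −0.19 and VWF to −0.069, in drug-loaded MNs versus HS CDH5 to 0.0094, FLT1 to 0.098, TEK to 0.048, ENG to 0.0019 and VWF to 0.0087, in drug-loaded MNs versus NS CDH5 to −0.21, TIE1 to −0.036, ENG to −0.19 and VWF to −0.061, in 5-Fu injection versus NS CDH5 to −0.054, KDR to −0.060 and FLT1 to −0.043. Rescaling to the total of FPKM turned in HS versus NS FLT1 to −0.050, in drug-loaded MNs versus HS PECAM1 to −0.0087 and EMCN to −0.0098, in 5-Fu injection versus HS CDH5 to −0.16, FLT1 to −0.052, TEK to −0.11, VWF to −0.17 and EMCN to −0.093, in drug-loaded MNs versus 5-Fu injection CDH5 to 0.016, FLT1 to 0.0046, TEK to 0.0031, VWF to 0.016 and EMCN to 0.084, in drug-loaded MNs versus NS CDH5 to −0.10 and ENG to −0.076, in 5-Fu injection versus NS CDH5 to −0.12, KDR to −0.12 and FLT1 to −0.10. Quantile normalization turned in 5-Fu injection versus HS VWF to −0.039, in drug-loaded MNs versus NS CDH5 to −0.014 and FLT1 to 0.00070. Voom turned in drug-loaded MNs versus HS EMCN to −0.0012. With 1 sample left out, these log2 fold changes took both signs. They were PECAM1 −0.17 to 0.038, CDH5 −0.14 to 0.35, FLT1 −0.11 to 0.15 and ANGPT1 −0.19 to 0.065 in HS versus NS. They were PECAM1 −0.097 to 0.11, CDH5 −0.35 to 0.14, FLT1 −0.15 to 0.11, TEK −0.26 to 0.16, VWF −0.25 to 0.027, EMCN −0.16 to 0.15 and PLVAP −0.035 to 0.16 in drug-loaded MNs versus HS. They were CDH5 −0.19 to 0.30, FLT1 −0.044 to 0.28, TEK −0.091 to 0.34, VWF −0.080 to 0.10 and EMCN −0.072 to 0.32 in 5-Fu injection versus HS. They were CDH5 −0.36 to 0.021, KDR −0.19 to 0.47, FLT1 −0.29 to 0.0062 and EMCN −0.32 to 0.073 in drug-loaded MNs versus 5-Fu injection. They were PECAM1 −0.11 to 0.029, CDH5 −0.21 to 0.19, FLT1 −0.11 to 0.056, ENG −0.037 to 0.097 and VWF −0.11 to 0.32 in drug-loaded MNs versus NS. They were CDH5 −0.045 to 0.36, KDR −0.14 to 0.52 and FLT1 −0.0076 to 0.29 in 5-Fu injection versus NS. The rescalings shift the values of all genes, and for the rest the cause was not tested.

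Counts over all tested genes were less stable. HS versus NS gave 665 DEGs, 526 to 1059 under other settings and 382 to 749 with 1 replicate left out, and rescaling to the total of reads moved the share of higher DEGs from 70.5% to 29.4%. For 5-Fu injection versus HS the 304 DEGs (22.4% higher) became 0 to 515, or 0 to 803 with 1 replicate left out (0 without HS replicate 2 or 3, 803 without 5-Fu injection replicate 2), and rescaling to the total of reads gave 285 with 43.9% higher and to the total of FPKM 515 with 9.13% higher. The 1 DEG of drug-loaded MNs versus HS became 0 to 37 (37 with only the 2 groups in the fit), or 0 to 2 with 1 replicate left out. The 116 DEGs of drug-loaded MNs versus NS became 23 to 138, or 0 to 176, the 1 DEG of 5-Fu injection versus NS 0 to 10, or 0 to 20, and the 0 DEGs of drug-loaded MNs versus 5-Fu injection 0 to 1, or 0 to 12. With 3 animals a group, differences of the 10 genes as large as 0.68 on the log2 scale (TIE1 in 5-Fu injection versus HS) did not pass the adjusted p.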
